A study of Mus musculus with 18 samples.

Results

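Intron-retaining isoforms are transcripts in which sequence that is normally spliced out remains in the mature, polyadenylated molecule. They were taken as the isoforms of the count table whose structural subcategory names intron retention, whole or partial, in any structural category. They numbered 15844 of 114425 isoforms (13.8%), lay under 5683 of 17714 gene labels (32.1%) and held 213267 of 10234812 reads (2.08%).

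The reads were PacBio long reads of full-length cDNA from primary mouse cultures of brain astrocytes, microglia and neurons, and from the small extracellular vesicles (sEVs) that each culture had released. Each cell type had 3 cell libraries and 3 sEV libraries, which makes 6 groups and 18 libraries. The labels give no treatment, genotype, age or strain, and do not say whether libraries of a group came from separate cultures, so each p-value measures the spread between these libraries only. Cell libraries were sequenced in 1 pool and sEV libraries in another, and RNA of the 2 fractions was extracted with different kits of 1 maker, so fraction, kit and pool cannot be told apart. Both extractions included DNase on the column.

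Introns are removed by the spliceosome while a transcript is made or soon after. Transcripts that keep an intron are often held in the nucleus, as "detained" introns near nuclear speckles are, or are degraded after export by nonsense-mediated decay when the intron carries a stop codon. Genes of splicing factors, above all those of SR proteins (serine and arginine-rich splicing regulators), are known for such isoforms, and regulated retention has been described in neurons and in immune cells. An intron can also be left in place in a main protein-coding transcript, where an annotation calls the same sequence an exon in one isoform and an intron in another.

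Of the intron-retaining isoforms, 10962 kept a whole intron and 4882 kept part of one. The whole-intron isoforms held 145426 reads, or 68.2% of the reads of all intron-retaining isoforms, and the partial ones 67841 reads. In 9114 whole-intron isoforms every splice site was a known one, 1743 were incomplete matches of a known transcript and 105 joined neighbouring genes. All partial ones carried a splice site that was not in the catalog. Intron-retaining isoforms were mostly rare: the median was 3 reads over all 18 libraries against 5 for other isoforms, 75.1% were seen in 1 library only against 62.8%, and 8 were seen in all 18. Of the 10962 whole-intron isoforms 9008 were seen in cells only and 1084 in sEVs only, while the 4882 partial ones split into 2563 and 1864. The 98581 other isoforms split into 38393 in cells only and 36542 in sEVs only. A single intron-retaining isoform was found in 2603 genes, and 10 or more in 219. Lilrb4b, a receptor gene of myeloid cells, had the most (114), followed by its neighbour Lilrb4a (60), both near-identical copies between which reads may be split. Among the 4192 carrier genes with at least 100 reads, the median share of reads in intron-retaining isoforms was 1.78%, 554 genes exceeded 10% and 57 exceeded 50%. The table gives no coordinates of the retained introns.

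Libraries held 434298 to 683381 reads. The defining markers were checked against the labels. The summed astrocyte markers stood at 22881 to 25858 reads per 1000000 (RPM) in astrocyte cells, the microglia markers at 15756 to 21144 RPM in microglia cells with Cx3cr1 at 0, and the neuron markers at 5879 to 9122 RPM in neuron cells. Neuron cultures also held astrocyte markers (2914 to 3239 RPM, 9 of 9 with reads) and astrocyte cultures oligodendrocyte markers (4198 to 9084 RPM, 7 of 8 with reads, Mog at 0). The part of these cells in the results was not tested. In bulk libraries, fewer cells of a type and less RNA per cell cannot be told apart.

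Whole-intron retention took up a smaller share of sEV reads than of cell reads in all 3 cell types. Reads of whole-intron isoforms made up 1.92%, 1.82% and 1.62% of the 3 astrocyte cell libraries and 0.997%, 0.759% and 0.687% of the astrocyte sEV libraries. In microglia they made up 1.39%, 1.63% and 1.59% in cells and 0.735%, 0.612% and 0.801% in sEVs. In neurons they made up 2.13%, 1.65% and 2.33% in cells and 1.64%, 1.60% and 1.58% in sEVs. Every sEV library lay below every cell library of its own type, by a wide margin in astrocytes and microglia and a narrow one in neurons. Averaged over cell types the share was 1.05% in sEVs and 1.79% in cells, a difference of −0.741 percentage points (exact two-sided permutation test stratified by cell type, p = 0.00025, the smallest it can give; adjusted p = 0.000458 over 22 such tests; n = 3 per group). Within 1 cell type the exact permutation test of 3 libraries against 3 cannot go below p = 0.1.

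The partial share was higher in sEVs of astrocytes and neurons, and much of that lay in 2 predicted genes, 5031425E22Rik and Gm42047. With all genes, the mean partial share was 0.967% ± 0.241 in astrocyte sEVs and 0.420% ± 0.0771 in astrocyte cells, and 0.949% ± 0.0781 in neuron sEVs and 0.625% ± 0.0719 in neuron cells (SD, n = 3). In neither cell type did the groups overlap. In microglia the groups overlapped, at 0.572% ± 0.135 in sEVs and 0.442% ± 0.0449 in cells. The stratified difference was 0.333 percentage points (exact permutation p = 0.0005, adjusted p = 0.000733). Without the 2 genes the partial share was 0.636% in neuron sEVs and 0.624% in neuron cells, which overlapped, and 0.649% and 0.420% in astrocytes, which did not, and the stratified difference was 0.123 points. Whole-intron isoforms made up 78.3% of intron-retaining reads in cells and 54.9% in sEVs, averaged over cell types (exact permutation p = 0.00025).

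**Figure D1:**
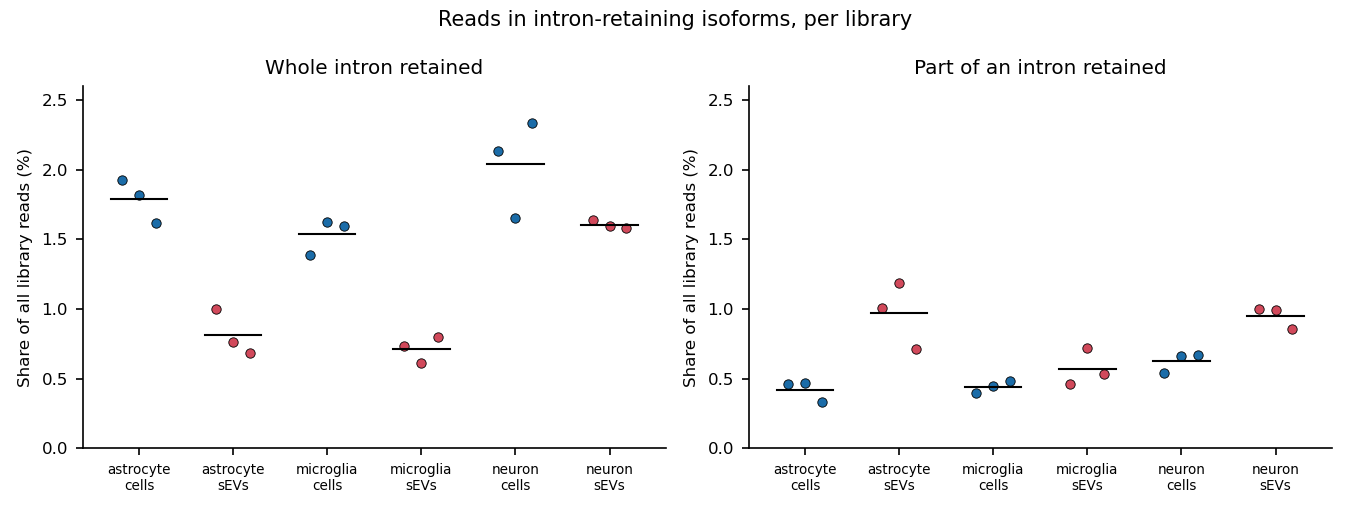
Percent of each library's reads in whole-intron (left) and partial (right) intron-retaining isoforms; each point is 1 library, bars are means of 3 libraries, for cells and sEVs of each cell type. Whole-intron shares of sEVs lie below those of cells in every cell type, from 0.612% to 1.64% against 1.39% to 2.33%, and partial shares lie higher in sEVs of astrocytes and neurons, where the neuron groups overlap once 2 predicted genes are left out (0.636% against 0.624%).

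With both kinds together the share was 2.21% in astrocyte cells and 1.78% in astrocyte sEVs, 1.98% and 1.29% in microglia, and 2.66% and 2.55% in neurons. The stratified difference was −0.408 percentage points (exact permutation p = 0.00575, adjusted p = 0.00791). The microglial groups did not overlap. The astrocyte and neuron groups did, and the neuron difference turned to 0.0589 points without the third neuron cell library. When only isoforms with a mean of 1 or more reads per library were kept, which left 1579 intron-retaining isoforms with 72.8% of the reads, the combined difference turned to 0.0953 points (exact permutation p = 0.527): 0.0971 in astrocytes, −0.458 in microglia and 0.647 in neurons. The whole-intron difference was then −0.233 points (exact permutation p = 0.0653), with neurons at 0.269. The rarer isoforms alone held 0.647% of cell reads and 0.131% of sEV reads as whole-intron isoforms.

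The same 2 predicted genes, 5031425E22Rik and Gm42047, held many of the abundant intron-retaining reads of sEVs; they were picked out after their values were seen. 5031425E22Rik had 5033, 1870 and 515 intron-retaining reads in the astrocyte sEV libraries and 5827, 4951 and 5705 in the neuron sEV libraries, against 0 to 8 in any cell library and 0, 4 and 10 in microglia sEVs. Gm42047 had 1070, 1164 and 721 in astrocyte sEVs and 1343, 401 and 706 in neuron sEVs, against 0 to 11 in any cell library and 0 in microglia sEVs. Without both genes, the combined share was 2.20% in cells and 1.21% in sEVs of astrocytes, and 2.66% and 1.59% in neurons. Without both and with the filter at a mean of 1 read, the stratified difference was −0.44 points for all intron-retaining reads and −0.548 for whole-intron reads.

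The genes sequenced differ between libraries, so each library's share was also compared with an expected share from its gene composition. There every gene kept its share pooled over the 18 libraries, with libraries scaled to equal totals. Libraries in which a gene was abundant thus weighed more in that gene's pooled share. The observed share minus that expected one, taken as sEVs minus cells, was −0.606 points in astrocytes, −0.768 in microglia and −0.629 in neurons, with no overlap of groups in any of them (stratified −0.668, exact permutation p = 0.00025, adjusted p = 0.000458). For whole-intron reads the stratified value was −0.794 points (exact permutation p = 0.00025). For partial reads it was 0.126 points (exact permutation p = 0.0605, adjusted p = 0.0739), which did not pass the threshold.

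Several other measures moved with the fraction, and their part in these differences was not tested. Malat1, a nuclear long non-coding RNA, stood at 13859 to 17382 RPM in astrocyte cells and 1070 to 4080 in their sEVs, at 1370 to 4119 and 23 to 64.7 in microglia, and at 7793 to 15668 and 195 to 421 in neurons. The whole list of 6 nuclear RNAs, of which 4 to 6 had reads in each group, ranged from 13959 to 17522 RPM in astrocyte cells against 1111 to 4080 in their sEVs, from 1453 to 4209 against 56.9 to 76.7 in microglia, and from 14313 to 25781 against 195 to 425 in neurons. Xist was at 0 in every group except neuron cells. Reads of 3′ fragments of known transcripts rose from 2.63–2.78% to 5.96–7.97% of astrocyte libraries, from 1.58–1.63% to 3.85–6.06% of microglia libraries and from 2.40–5.16% to 9.63–10.4% of neuron libraries.

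Of the 4202 genes with whole-intron isoforms, those read deeply enough in both fractions mostly had a lower whole-intron share in sEVs. Of the 1279 genes with whole-intron isoforms and at least 50 reads in both fractions of astrocytes, 88.0% had a lower whole-intron share in sEVs, and the median share was 2.54% in cells and 0 in sEVs. In 999 of them no whole-intron read was seen in sEVs, against 51 in which none was seen in cells. In microglia 85.9% of 733 genes were lower (534 at 0 in sEVs and 41 at 0 in cells), and in neurons 83.8% of 1142 (802 and 61). Partial shares were lower in 52.7% of 626 genes in astrocytes, 52.0% of 479 in microglia and 50.6% of 561 in neurons. A gene entered these counts with such a read in either fraction. A gene at 0 in sEVs therefore had to count as lower, and a gene at 0 in cells as higher. These counts are descriptions: reads were pooled over the 3 libraries of a group, genes are not replicates, and a 0 at low depth allows a share above 0.

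**Figure D2:**
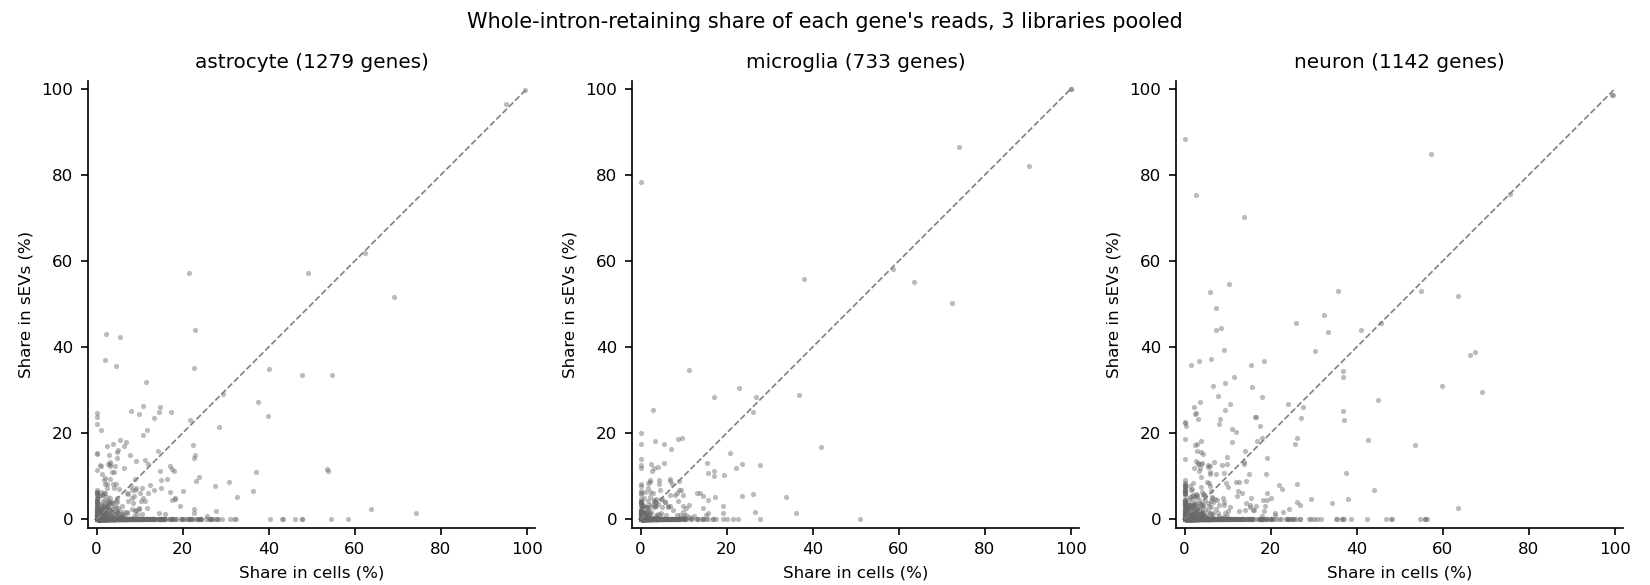
Whole-intron share of each gene's reads in cells (horizontal axis, percent) and sEVs (vertical axis, percent) of the same cell type, reads pooled over 3 libraries, for genes with at least 50 reads in both; the dashed line marks equal shares. Of 1279 genes in astrocytes, 733 in microglia and 1142 in neurons, 88.0%, 85.9% and 83.8% lie below the line, many of them at 0 in sEVs. Genes entered with a whole-intron read in either fraction, so those at 0 in sEVs lie below the line by that rule.

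The share within a gene was then tested gene by gene with edgeR's diffSpliceDGE, intron-retaining reads against all other reads of the gene, with Benjamini-Hochberg adjustment over the 821 genes that had enough of both (14.4% of carrier genes). All tested genes carry the isoforms, so the counts below are also the background over all features. The share fell in astrocyte sEVs in 169 genes (20.6%) and rose in 10 (1.22%). It fell in 75 genes (9.14%) and rose in 4 (0.487%) in microglia, and fell in 151 (18.4%) and rose in 17 (2.07%) in neurons. For the mean over cell types it fell in 174 (21.2%) and rose in 9 (1.1%). The libraries of the 2 groups did not overlap in 146, 61 and 129 of the 169, 75 and 151 lower genes of astrocytes, microglia and neurons. Non-overlap was not counted over all 821 genes, so these numbers are descriptions of the called genes.

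The filter on low values bears on these counts. Of the 821 genes, 368 passed through the intron-retaining reads of a cell group alone, 53 through an sEV group alone, 70 through groups of both fractions and 330 only by libraries spread over groups. Genes that passed through cells alone gave 115 of the 169 lower calls in astrocytes, 66 of 75 in microglia and 115 of 151 in neurons. Among the 70 genes that passed in both fractions, 3 fell and 4 rose in astrocytes, 3 fell and 0 rose in microglia, and 1 fell and 2 rose in neurons. Among the 330, 47 fell and 2 rose in astrocytes, 5 fell and 2 rose in microglia, and 34 fell and 7 rose in neurons. Srsf3, Srsf7, Snrpa1, Syf2, Slc25a3, Atp5b, Psmc4 and Wsb1, described below, had no intron-retaining read in any sEV library. They passed through reads of cell libraries only, so in sEVs their share could only be lower, and their p-values carry that selection. The counts also rested on all 6 libraries of a comparison: leaving out any 1 of them lowered the total called from 179 (21.8%) to between 57 and 117 in astrocytes, from 79 (9.62%) to between 24 and 42 in microglia, and from 168 (20.5%) to between 47 and 99 in neurons. The mean over cell types kept 143 to 194 calls in place of 183 (22.3%).

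In all 3 cell types 25 genes were called lower. Among them were Adrm1, Aldoa, Atp5b, Becn1, Eif2s3y, Ftl1, Gtf2f1, Hnrnpa2b1, Ilk, Psmb6, Psmc3, Psmc4, Slc25a3, Slc25a5, Snrpa1, Srsf3, Srsf5, Srsf7, Stk16, Syf2, Tmsb4x, Wsb1 and Zfpl1. A call in at least 1 cell type was made in 267 genes. Astrocytes and neurons shared 89 lower genes (52.7% of the astrocyte and 58.9% of the neuron calls), astrocytes and microglia 36 (21.3% and 48.0%), and microglia and neurons 28 (37.3% and 18.5%).

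SR splicing factors retained introns in a larger part of their reads in cells than in sEVs. Of 13 SR genes 11 carried intron-retaining isoforms and 4 could be tested. All 4 fell in astrocytes and for the mean contrast, and 3 fell in microglia and in neurons. Over all 821 genes tested, 20.6% fell in astrocytes, 9.14% in microglia, 18.4% in neurons and 21.2% for the mean contrast. These shares are the background for this list and for the lists below. Summed over the list, the median share was 34.9% of reads in astrocyte cells, 11.3% in microglia cells and 33.5% in neuron cells, against 5.05%, 0.462% and 0.533% in sEVs. The ranges of cells and sEVs were apart in each cell type. A share summed over a list, here and below, also moves with which of its genes were abundant. The part of this was not tested.

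Srsf5, which regulates alternative exons, had the most intron-retaining reads of the list. Its share was 70.5%, 73.7% and 78.7% in astrocyte cells, 36.8%, 29.7% and 41.4% in microglia cells and 69.8%, 67.4% and 68.2% in neuron cells. In sEVs it was 0, 2.56% and 2.30% in astrocytes, 0, 2.01% and 1.94% in microglia, and 0 in all 3 neuron libraries, which held 44 reads of the gene. Every cell library lay far above every sEV library, and microglia cells lay below the other cells. The adjusted p was 1.11e-07 in astrocytes, 1.15e-05 in microglia and 5.03e-05 in neurons.

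Srsf7, which also takes part in mRNA export, gave 38.8%, 50.4% and 57.1% in astrocyte cells, 8.47%, 8.57% and 9.62% in microglia cells and 51.1%, 41.5% and 50.7% in neuron cells. No intron-retaining read was seen in sEVs, among 217 reads of the gene in astrocytes, 460 in microglia and 114 in neurons, which allows shares of up to 1.38%, 0.652% and 2.63% by counting error alone. The sEV libraries lay below all cell libraries of their type (adjusted p = 1.11e-07, 1.15e-05 and 2.04e-06). Srsf7 passed the filter on low values through cell libraries only, so its share in sEVs could only be lower. Srsf3, the smallest SR protein, was lower from a lower start: 7.24% of its reads in astrocyte cells, 2.31% in microglia cells and 10.5% in neuron cells were intron-retaining, and 0 of 295, 444 and 432 reads in their sEVs (adjusted p = 0.00707, 0.0386 and 0.00327).

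Hnrnpa2b1, Snrpa1 and Syf2 were among the genes with the smallest p-values. Hnrnpa2b1 encodes an hnRNP protein that binds RNA in the nucleus and has been studied in the sorting of RNA into vesicles. Its share was 25.5%, 20.5% and 21.6% in astrocyte cells, 8.40%, 3.81% and 9.68% in microglia cells and 26.6%, 14.4% and 19.1% in neuron cells. In sEVs it was 0 in 8 of 9 libraries and 3.10% in the third astrocyte library (adjusted p = 0.00381, 0.00226 and 0.00327). Snrpa1, a protein of the U2 particle that recognises the branch point, ran from 23.5% to 30.7% in astrocyte cells, 10.0% to 15.6% in microglia cells and 22.4% to 46.4% in neuron cells. None of its 222, 204 and 142 sEV reads retained an intron (adjusted p = 0.000119, 0.0015 and 0.000173). Syf2, a spliceosome component, ran from 4.17% to 18.5% over the 9 cell libraries and was 0 in all 9 sEV libraries (mean contrast, adjusted p = 1.6e-06).

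Of the 16 hnRNP and DEAD box genes with such isoforms 10 were tested. Of these, 3 fell in astrocytes, 2 in microglia, 2 in neurons and 4 for the mean contrast. The shares over all 821 genes tested were 20.6%, 9.14%, 18.4% and 21.2%. Whether this list differed from them was not tested. Ddx5, an RNA helicase, was the 1 that rose, in neurons (adjusted p = 0.0436), with shares of 55.8%, 19.7% and 0 in sEVs and 1.44% to 2.86% in cells; the groups overlapped, and in microglia it fell from 1.40–2.33% to 0 (adjusted p = 0.0275).

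Among 25 genes of nuclear speckle proteins and CLK kinases, 22 carried intron-retaining isoforms and 10 were tested. In astrocytes 5 fell, in microglia and in neurons 0, and for the mean contrast 7, against 20.6%, 9.14%, 18.4% and 21.2% of all 821 genes tested. Summed over the list the median share was 9.71% in astrocyte cells, 9.36% in microglia cells and 8.47% in neuron cells, against 2.47%, 0.984% and 1.01% in sEVs. Clk4, a kinase that phosphorylates SR proteins, stood at 68.7%, 46.2% and 60.6% in astrocyte cells and at 0 of 60 reads in their sEVs (adjusted p = 0.00543). In neuron cells it stood at 65.7%, 48.6% and 46.5%, but neuron sEVs held only 11 reads of the gene (adjusted p = 0.0519). Pnisr, a protein rich in serine and arginine, gave 41.8%, 50.6% and 79.6% in astrocyte cells and 0 of 70 reads in their sEVs (adjusted p = 0.00706). Rsrp1 differed: its share was 12.9%, 24.1% and 15.7% in microglia cells and 0, 16.1% and 11.6% in their sEVs, which overlapped (adjusted p = 0.607), while in astrocytes it fell from 9.54–10.8% to 0 (adjusted p = 0.0126).

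**Figure D3:**
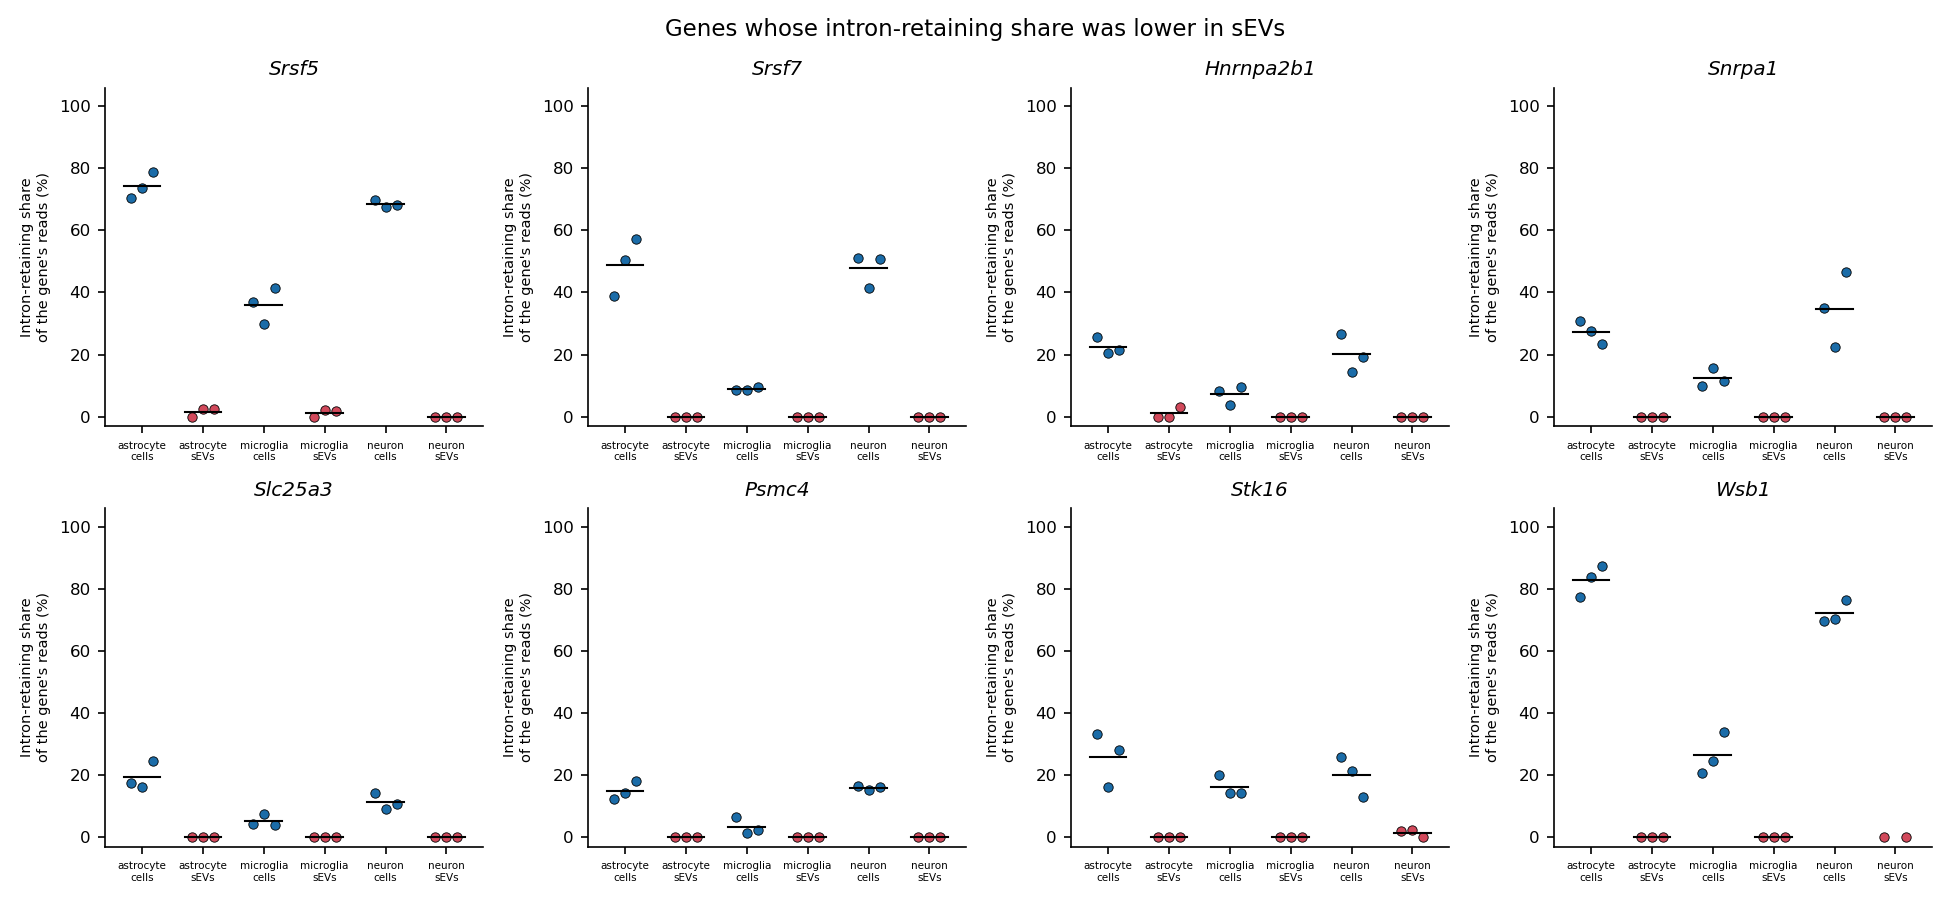
Percent of a gene's reads in intron-retaining isoforms in each library for 8 genes whose share fell in sEVs; points are libraries, cells in blue and sEVs in red, lines are means of the libraries of a group. Srsf5 and Wsb1 reach 78.7% and 87.4% in astrocyte cells, and most sEV libraries of the 8 genes lie at 0.

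Gas5 and Rian, both non-coding, also fell. Gas5, a snoRNA host gene whose introns encode small nucleolar RNAs, stood at 60.9%, 67.2% and 62.5% in astrocyte cells and at 0, 0 and 5.48% in their sEVs (adjusted p = 0.00231). In neurons it stood at 60.3%, 55.8% and 48.6% in cells and at 0 of 153 reads in sEVs (adjusted p = 0.000476). Microglia had under 10 reads of Gas5 in either fraction. It was the only one of 7 carrier genes on the snoRNA host list that could be tested. The list as a whole had a median share of 40.3% in astrocyte cells and 9.29% in neuron cells and 0 in the sEVs of both. Rian, a long non-coding RNA of the Meg3 locus that also hosts snoRNAs, stood at 50%, 61.5% and 50% in neuron cells and at 0 of 293 reads in their sEVs (adjusted p = 0.00126).

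Genes outside splicing fell too, mostly from lower shares. Wsb1, a substrate receptor of a ubiquitin ligase, was the exception: its share was 77.4%, 84.0% and 87.4% in astrocyte cells, 20.6%, 24.6% and 34.0% in microglia cells and 69.8%, 70.4% and 76.5% in neuron cells. None of its 34, 284 and 9 sEV reads retained an intron (adjusted p = 0.000119, 0.000108 and 0.00866). Stk16, a membrane-bound kinase of the Golgi region, ran from 13.2% to 33.3% over cell libraries and from 0 to 2.53% over sEV libraries (mean contrast, adjusted p = 2.1e-06).

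Slc25a3, the mitochondrial phosphate carrier, gave 17.5%, 16.2% and 24.5% in astrocyte cells, 4.32%, 7.41% and 3.83% in microglia cells and 14.1%, 9% and 10.9% in neuron cells. It had 0 intron-retaining reads of 675, 707 and 634 in their sEVs, which allows shares of up to 0.444%, 0.424% and 0.473% (adjusted p = 1.78e-06, 0.000163 and 1.52e-05). Of the 57 respiratory chain genes that carried such isoforms 8 were tested. Of those, 5 fell in astrocytes, 1 in microglia and 6 in neurons, against 20.6%, 9.14% and 18.4% of all genes tested. Atp5b, the catalytic beta subunit of ATP synthase, ran from 2.36% to 6.28% in neuron cells and was 0 in all 9 sEV libraries (adjusted p = 0.00203, 0.0466 and 0.000672).

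Psmc4, an ATPase of the proteasome cap, gave 12.4%, 14.3% and 18.3% in astrocyte cells, 6.60%, 1.39% and 2.40% in microglia cells and 16.5%, 15.1% and 16.1% in neuron cells. It was 0 in sEVs among 483, 718 and 273 reads (mean contrast, adjusted p = 2.92e-08). Psmb6, a catalytic subunit of the proteasome core, ran from 2.03% to 7.41% in cells, and of 9 sEV libraries only the third microglia library had such reads (0.377%; mean contrast, adjusted p = 8.62e-07). Ckb, the brain creatine kinase, gave 8.05%, 7.94% and 13% in astrocyte cells and 0, 0.266% and 0.136% in their sEVs (adjusted p = 0.000111). In each of these genes the cell libraries lay above all sEV libraries of their type.

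Cytosolic ribosomal protein genes were mixed. Of 88 genes, 60 carried intron-retaining isoforms and 15 were tested. In astrocytes 5 fell and 1 rose, in microglia 1 fell and 0 rose, and in neurons 2 fell and 2 rose. Of all 821 genes tested 20.6%, 9.14% and 18.4% fell and 1.22%, 0.487% and 2.07% rose. Summed over the list, the median share was 1.86% in cells and 0.352% in sEVs of astrocytes, 0.507% and 0.129% in microglia, and 2.23% and 1.84% in neurons, where the ranges overlapped. Of 8 translation factors tested, 2 fell in astrocytes, 2 in microglia and 3 in neurons, with 1 that rose in neurons. Eif4a2, an RNA helicase of initiation, gave 18.9%, 25.6% and 20.7% in astrocyte cells and 0 in their sEVs (adjusted p = 0.000445). Ribosomal protein genes have many processed pseudogenes, which lack introns, so reads of their spliced forms could be assigned to those copies. Whether this bears on the shares above was not tested.

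Cytokine and chemokine genes were read deeply in microglia. Of 17 such genes with intron-retaining isoforms 12 were tested. In microglia sEVs 6 of them fell and 0 rose, against 9.14% and 0.487% of all genes tested. Summed over the list, the share was 2.54% to 2.92% in microglia cells and 0.640% to 0.968% in their sEVs. Ccl4, a chemokine that attracts monocytes and T cells, gave 6.30%, 6.34% and 5.59% in cells. None of its 19192 sEV reads retained an intron, which allows a share of up to 0.0156% by counting error alone (adjusted p = 7.44e-06). Ccl7, Ccl12, Il12b and Il1a also fell (adjusted p = 0.00837, 0.00339, 0.0268 and 0.0217). Il27, an interleukin subunit gene with more intron-retaining reads than any other on the list, went from 9.83%, 9.47% and 9.66% in cells to 12.8%, 16.5% and 14.4% in sEVs without passing the test (adjusted p = 0.619). Ctsb, the lysosomal protease cathepsin B, gave 0.422%, 2.28% and 2.92% in microglia cells and 0 of 7148 reads in their sEVs (adjusted p = 0.00052).

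**Figure D4:**
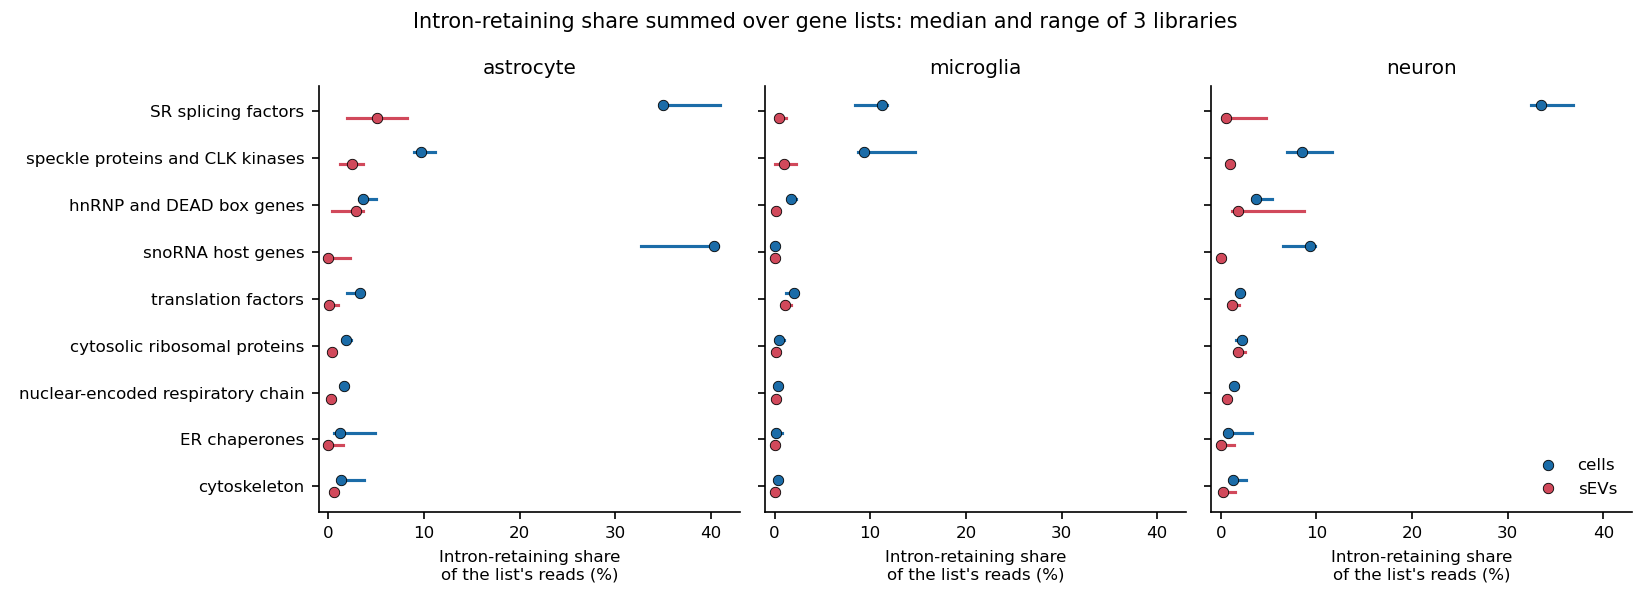
Intron-retaining share of the summed reads of 9 gene lists, in percent, in cells and sEVs of each cell type; points are medians and lines the range of 3 libraries. SR splicing factors lie at 34.9%, 11.3% and 33.5% in cells of astrocytes, microglia and neurons and at 5.05%, 0.462% and 0.533% in sEVs, and snoRNA host genes at 40.3%, 0 and 9.29% in cells and 0 in sEVs.

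The remaining lists gave few calls. The shares over all genes tested in astrocytes, microglia and neurons were 20.6%, 9.14% and 18.4% lower and 1.22%, 0.487% and 2.07% higher. Of 4 ER chaperone genes tested, 1 fell in neurons and 0 in the other cell types. Of 3 genes of MHC class I and peptide loading, 0 passed in any cell type. Of 5 cytoskeletal genes 2 fell in astrocytes, 1 in microglia and 3 in neurons. Tmsb4x, which encodes the actin-binding peptide thymosin beta 4, was the microglial one, with 1.32%, 2.47% and 1.40% in cells and 0 of 15071 reads in sEVs (adjusted p = 0.000377). Fos, the only immediate early gene with such isoforms, stood at 24.5% to 26.2% in astrocyte cells and at 0 in their sEVs, where it had few reads (adjusted p = 0.0839). Of 3 genes of matrix and secreted proteins, 2 rose in astrocytes and 1 in neurons, namely Apoe and Clu.

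In 57 genes over 50% of the reads, pooled over all 18 libraries, came from intron-retaining isoforms. In 34 of them the share was over 50% in cells and in sEVs, in 12 in cells only and in 11 in sEVs only, with reads pooled over cell types. The 57 genes held 59952 reads, or 28.1% of all intron-retaining reads. They took up 11.3% to 17.9% of intron-retaining reads in cell libraries, and 30.1% to 56.5% in astrocyte sEVs, 31.6% to 44.3% in microglia sEVs and 46.6% to 51.8% in neuron sEVs. Of their reads 23943 came from 5031425E22Rik; without it the values were 11.3% to 17.8% in cells, 12.9% to 26.5% in astrocyte sEVs, 31.6% to 44.3% in microglia sEVs and 20.1% to 24.1% in neuron sEVs. In the other 5626 carrier genes together the share was 2.56% to 2.99% in astrocyte cells and 1.15% to 1.79% in their sEVs, 1.91% to 2.40% and 0.850% to 1.22% in microglia, and 2.89% to 4.18% and 1.65% to 1.94% in neurons. This division was made after the values were seen and is a description.

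Oaz1, which encodes the antizyme that targets ornithine decarboxylase for degradation, was the annotated gene with the most intron-retaining reads. They were 99.6% of its reads and stood at 717 ± 118 RPM in astrocyte cells, 616 ± 25.2 in microglia cells and 678 ± 65.5 in neuron cells. In sEVs they stood at 832 ± 390, 1479 ± 109 and 904 ± 125 RPM (SD, n = 3). With so few other reads its share could not be tested. The related antizyme gene Oaz2 had 93.2% to 100% of its reads in such isoforms in every library, and Phf11b, an interferon-induced gene read in microglia, 57.3% to 61.0% in cells and 55.7% to 60.6% in sEVs. Neither passed the test in any cell type (adjusted p from 0.636 to 1). Kif5b, the heavy chain of a kinesin motor, did so for the mean contrast only (adjusted p = 0.0275), with pooled shares of 69.2%, 72.3% and 67.5% in cells and 51.6%, 50.1% and 38.9% in sEVs of astrocytes, microglia and neurons.

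The genes that rose in sEVs were fewer, and fewer of their calls held. Eif3i, a subunit of the initiation factor that recruits the small ribosomal subunit, had no intron-retaining read among 127 in neuron cells, which allows up to 2.36%. In neuron sEVs its shares were 82.5%, 84.0% and 96.8% (adjusted p = 0.000387). Rpl9, a protein of the large ribosomal subunit, was at 0 in neuron cells and at 17.8%, 4.55% and 33.7% in neuron sEVs (adjusted p = 0.00408), while in astrocytes it fell to 0 (adjusted p = 0.00664). These 2 calls in neurons held under every alternative that could be fitted and without each library in turn.

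Rps4x, a protein of the small ribosomal subunit, gave 14.5%, 2.08% and 11.1% in neuron cells and 54.6%, 24.1% and 43.7% in neuron sEVs (adjusted p = 0.0181). Its reads were nearly all partial retention, and with partial retention left out its share was lower in neuron sEVs (adjusted p = 0.00593). The call was also lost without neuron cell library 2 or 3 or neuron sEV library 1 or 3, with adjusted p up to 0.137. In astrocytes its share fell from 2.70–6.21% to 0 (adjusted p = 0.00189). Fam32a gave 0, 8.45% and 15.5% in neuron cells and 38.9%, 38.5% and 41.6% in neuron sEVs (adjusted p = 0.0193), and 3.03%, 0 and 4% in astrocyte cells and 6.98%, 9.86% and 23.1% in astrocyte sEVs (adjusted p = 0.039). The neuron call was lost without any 1 of the 6 libraries except cell library 3 (adjusted p up to 0.0811), and the astrocyte call in limma, with the replicate block and without any 1 library (up to 0.208). Rpl7a, another protein of the large subunit, gave 7.41%, 9.52% and 6.15% in astrocyte cells and 25.1%, 11.5% and 32.2% in astrocyte sEVs (adjusted p = 0.0285). That call was lost with the replicate block and without any 1 library except sEV library 2 (up to 0.148). Rpl7a did not pass in neurons (adjusted p = 0.576).

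The further rises came from partial retention or low counts. Pla2g7, which encodes a phospholipase that inactivates platelet-activating factor, gave 0.207%, 0.225% and 0.178% in astrocyte cells and 6.91%, 16.3% and 9.94% in their sEVs (adjusted p = 0.0191). Its call was lost without any 1 of the 6 libraries, with adjusted p up to 0.103. Tfec, a transcription factor of myeloid cells, gave 0 in microglia cells and 17.6%, 12.2% and 6.40% in their sEVs (adjusted p = 0.0421), and was lost with the replicate block and without any 1 of the 6 libraries (up to 0.219). Apoe, the main lipid carrier made by astrocytes, gave 1.45%, 0.159% and 0.161% in astrocyte cells and 17%, 11.4% and 1.07% in their sEVs (adjusted p = 0.0034), and these groups overlapped. Clu, which encodes the secreted chaperone clusterin, gave 41.5%, 60.8% and 0 in astrocyte sEVs and under 1% in astrocyte cells (adjusted p = 0.00618), also with overlap.

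Single isoforms were tested beside all others. Of 9370 isoforms that passed the filter on low counts 306 retained an intron, 234 wholly and 72 partly. They were 1.93% of all intron-retaining isoforms but held 46.8% of the reads. In edgeR's quasi-likelihood test 63 of 306 fell and 9 rose in astrocyte sEVs (12.3% and 3.22% of all isoforms tested), 59 fell and 0 rose in microglia (8.0% and 1.36%), and 77 fell and 13 rose in neurons (20.9% and 6.26%). For the mean over cell types 52 fell and 5 rose (21% and 6.92%). The 0 in microglia was 3 at an unadjusted p under 0.05 and 2 with DESeq2. In either direction, 87 of the 306 and 21.1% of all isoforms had an unadjusted p under 0.05 in microglia. Of the 234 whole-intron isoforms 59, 54 and 71 fell in the 3 cell types, and of the 72 partial ones 4, 5 and 6. The median log2 difference for the mean contrast was −2.72 over whole-intron isoforms, −0.10 over partial ones and −0.55 over all isoforms tested. Within single cell types the whole-intron medians were smaller: −0.67 in astrocytes, −0.10 in microglia and −0.27 in neurons. Over all isoforms tested they were −0.09, 0 and −0.57, so in neurons the whole-intron median lay above that of all isoforms.

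Here too most calls came from isoforms that passed the filter through cell libraries alone, 155 of the 306, of which 58 fell in astrocytes, 57 in microglia and 68 in neurons (37.4%, 36.8% and 43.9%). Over all isoforms that passed that way the shares were 24.2%, 14.8% and 39.2%. Of the 35 that passed in both fractions 1 fell in astrocytes, 0 in microglia and 1 in neurons, against 11.1%, 8.23% and 19.6% of all isoforms that passed so. Leaving out any 1 of the 6 libraries lowered the calls from 72 (15.5% of all isoforms tested) to between 30 and 48 in astrocytes, from 59 (9.36%) to between 15 and 23 in microglia and from 90 (27.2%) to between 42 and 58 in neurons. The test of whether the difference itself varied with cell type called 0 of the 306, against 1.23% of all isoforms. At an unadjusted p under 0.05 it gave 16 of the 306, against 1362 of all 9370 isoforms (14.5%). It called 5 with a filter of 3 reads and 1 without the third microglia cell library. The shares over all isoforms under those settings are not given here.

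The most abundant Srsf5 isoform with a retained intron stood at 317, 267 and 295 counts per 1000000 (CPM, scaled by TMM) in astrocyte cells, 162, 134 and 165 in microglia cells and 229, 191 and 221 in neuron cells. It was 0 in 8 of 9 sEV libraries and 4.81 CPM in the other, so it was at least 66.2-fold lower in astrocyte sEVs and 41.7-fold lower in neuron sEVs, counted against 3 reads per library (adjusted p = 5.27e-05 and 5.38e-05). Slc25a3 and Wsb1 each had 1 whole-intron isoform that was 0 in all 9 sEV libraries. The Slc25a3 one was at least 18.1-fold, 4.75-fold and 14.9-fold lower in astrocyte, microglia and neuron sEVs, and the Wsb1 one at least 52.3-fold, 6.11-fold and 6.23-fold. An isoform of Sirt7, a nucleolar deacetylase, one of Thoc1, a subunit of the complex that couples transcription to mRNA export, and one of Grina were also 0 in every sEV library (mean contrast, adjusted p = 1.28e-05, 2.08e-05 and 2.57e-05). An Srsf7 isoform read in astrocyte and neuron cells but not in microglia cells was at least 24.9-fold and 23.1-fold lower (adjusted p = 0.000898 and 0.000582).

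Some isoforms were read mainly in 1 cell type. A whole-intron Ccl4 isoform stood at 839, 814 and 722 CPM in microglia cells and had no read in their sEVs (adjusted p = 0.0015), which puts it at least 150-fold lower there. One of Il27 stood at 337, 295 and 320 CPM and 0, and was at least 60.3-fold lower (adjusted p = 0.00475). DESeq2 did not call them (adjusted p = 0.144 and 0.227). In neurons an isoform of Meg3, a long non-coding RNA of the nucleus, stood at 813, 302 and 18.7 CPM in cells and 0 in sEVs (adjusted p = 0.00346). This test compares levels, and Meg3 as a whole was scarce in neuron sEVs. The list of 6 nuclear RNAs, Meg3 among them, summed to 195 to 425 RPM there, with Malat1 alone at 195 to 421. In the other direction, the Eif3i isoform stood at 204, 203 and 289 CPM in neuron sEVs and 0 in neuron cells, at least 43.6-fold higher (adjusted p = 0.016), but was lost with DESeq2 and without any neuron cell library or sEV library 3 (adjusted p up to 0.122). The Rpl9 isoform stood at 276, 73.5 and 473 CPM in neuron sEVs and 0 in neuron cells, at least 51.5-fold higher (adjusted p = 0.0069), and kept its call under every alternative run.

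When usage of each isoform within its gene was tested in 1 fit with all other isoforms (4433 isoforms of 1752 genes, 277 of them intron-retaining), 5 fell and 0 rose in astrocytes, against 0.406% and 0.158% of all isoforms. In microglia 15 fell and 0 rose, against 0.902% and 0.0451% of all isoforms. In neurons 5 fell and 0 rose, against 0.406% and 0.338%, and for the mean contrast 32 fell and 3 rose, against 2.41% and 0.993%. Leaving out any 1 library lowered these to 1 or 2 in astrocytes, 2 to 5 in microglia and 0 or 1 in neurons, while the mean contrast gave 22 to 32 in place of 35, with 22 without neuron cell library 1 and 23 without microglia cell library 2. Calls in either direction made up 0.564%, 0.947%, 0.744% and 3.41% of all isoforms in the 4 contrasts.

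Among cell types, the mean share of intron-retaining reads was highest in neurons. In sEVs the shares were 2.64%, 2.59% and 2.44% for neurons, 2.01%, 1.94% and 1.40% for astrocytes and 1.19%, 1.33% and 1.33% for microglia. No 2 of these groups overlapped (exact permutation test of the variance between groups, p = 0.00357, adjusted p = 0.0286 over 8 tests). The separation of astrocytes from microglia rested on 5031425E22Rik and Gm42047: without them the sEV shares were 1.10%, 1.35% and 1.20% in astrocytes and 1.19%, 1.33% and 1.33% in microglia, which overlapped, and 1.73%, 1.61% and 1.43% in neurons, still above both. In cells they were 2.67%, 2.32% and 3% for neurons, 2.39%, 2.28% and 1.95% for astrocytes and 1.78%, 2.08% and 2.08% for microglia. Neighbouring groups in that order overlapped, and the test did not pass (exact permutation p = 0.0536, adjusted p = 0.0714).

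The number of genes that differed in retained share among cells depended on the tool. Of 821 genes, 0 differed in astrocyte cells against the other cells by edgeR, with 107 at an unadjusted p under 0.05, 69 called by limma and 10 called with partial retention left out. In microglia cells 38 genes differed (4.63%), 33 of them lower (4.02%) and 5 higher (0.609%). Leaving out any 1 of the 9 cell libraries lowered that to between 5 and 23, the replicate block gave 18 and limma 243. In neuron cells 21 differed (2.56%), all higher, with 9 to 15 without 1 library and 115 by limma.

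The microglial genes included Srsf7, at 8.47% to 9.62% in microglia and 38.8% to 57.1% in the other cells (adjusted p = 0.000533), and Rpl7a, at 0 in microglia cells, 6.15% to 9.52% in astrocyte cells and 26.6% to 40.9% in neuron cells (adjusted p = 0.000533). Dpp7, a lysosomal peptidase, Pdia6, a disulphide isomerase of the ER, and Wdr74, a ribosome assembly factor, were likewise at 0 in microglia cells and above 0 in all other cell libraries. Their adjusted p were 0.00179, 0.0019 and 0.00453. Dpp7 and Pdia6 lost the call without the third microglia library (adjusted p = 0.054), and Wdr74 without any 1 microglia library (up to 0.0612). Ctsb was the one named higher gene (adjusted p = 0.000533), at 0.422% to 2.92% in microglia cells and at most 0.271% in other cells.

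The neuronal genes were sharper. Ap1s2, a subunit of the AP-1 clathrin adaptor, had all of its 42, 35 and 30 reads in partial intron-retaining isoforms in neuron cells and none in astrocyte or microglia cells (adjusted p = 0.000207). Chchd3, which shapes mitochondrial cristae, gave 65.5%, 75.4% and 61.4% in neuron cells and 0 to 2.56% in the others, again by partial retention (adjusted p = 7.88e-05). Dlgap4, a scaffold of the postsynaptic density, gave 34.2%, 56.0% and 44.5% against 0 to 2.74% (adjusted p = 9.26e-05), and Rexo2, a mitochondrial oligoribonuclease, 21.1%, 12.5% and 8.33% against 0 (adjusted p = 0.000752). All 4 had such reads in neuron sEVs. Those of Ap1s2 were 7 of 7 and 12 of 12 reads in 2 libraries, with no read of the gene in the other (adjusted p = 1). Chchd3 stood at 65.3%, 46.3% and 33.9%, Dlgap4 at 24.3%, 25% and 35.2%, and Rexo2 at 11.9%, 19.7% and 12.5%, and none of these 3 passed the test against neuron cells (adjusted p = 0.467, 0.503 and 1).

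**Figure D5:**
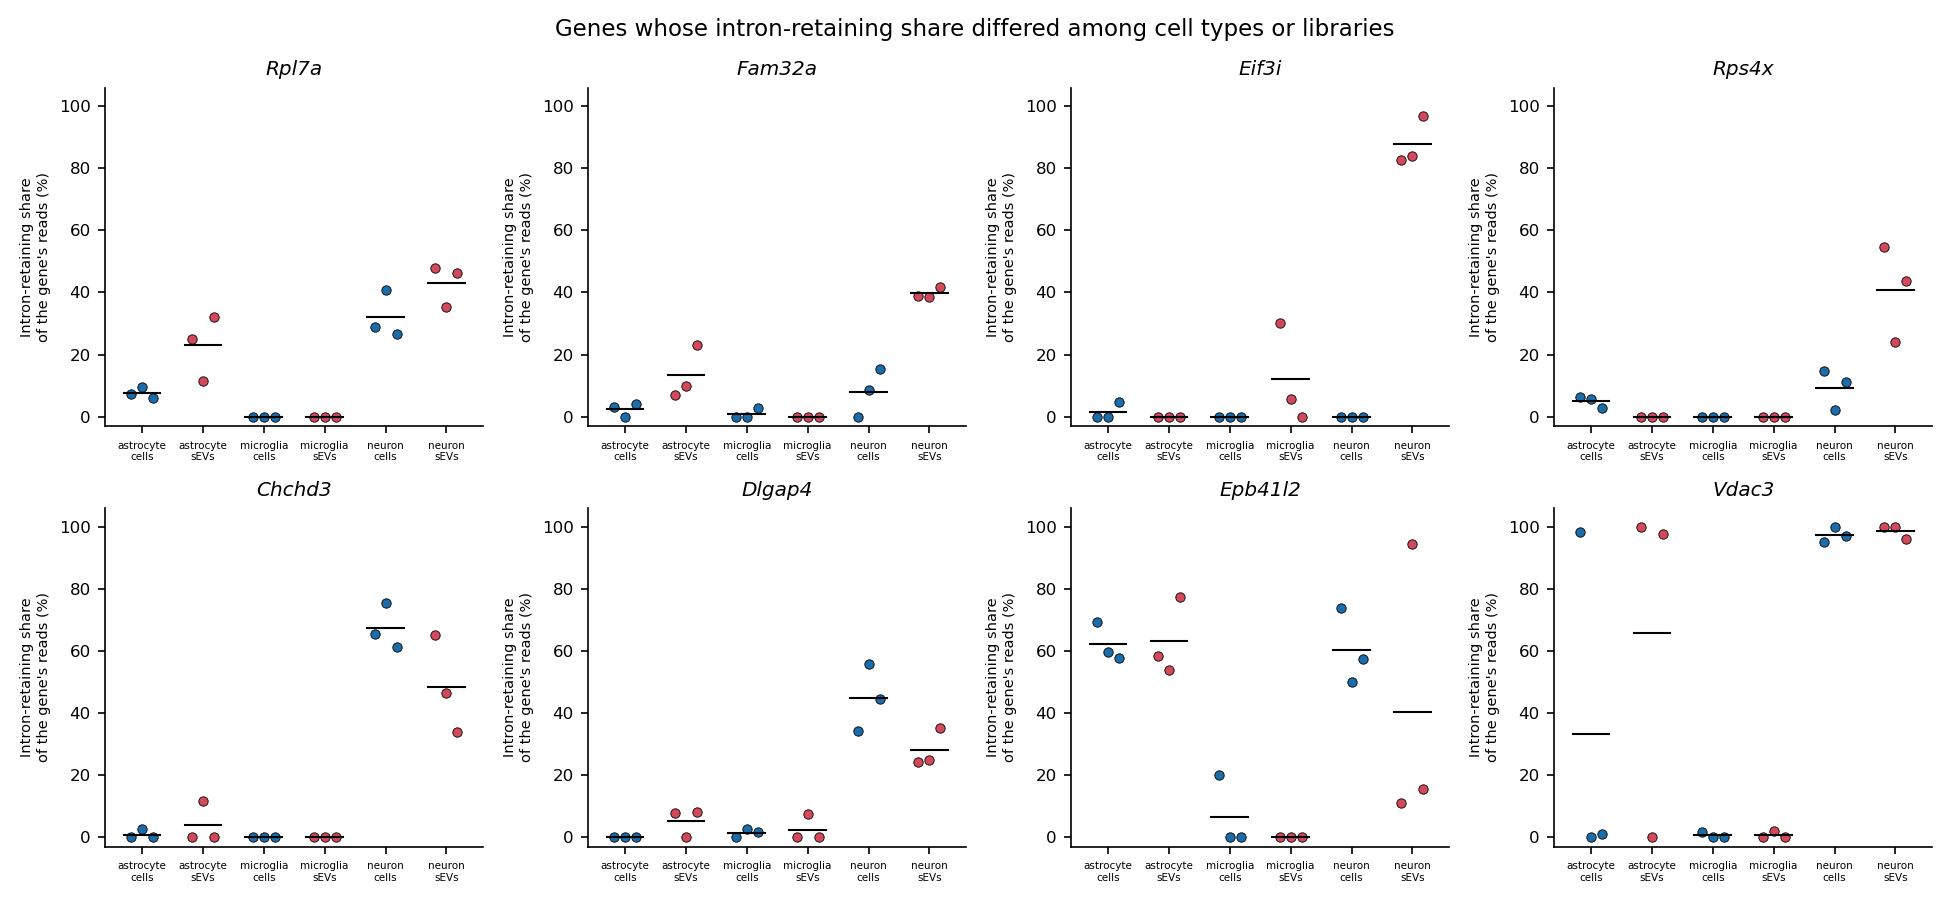
Percent of a gene's reads in intron-retaining isoforms in each library for 8 genes that differed among cell types or, in the case of Vdac3, among libraries of a group; points are libraries, cells in blue and sEVs in red, lines are means of the libraries of a group. Chchd3 and Dlgap4 lie at 34.2% to 75.4% in neuron cells and at most 2.74% in other cells, and Eif3i lies at 82.5% to 96.8% in neuron sEVs and at most 30.2% elsewhere.

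Among sEVs, 69 of 821 genes differed in neurons (8.4%), 66 of them higher (8.04%) and 3 lower (0.365%), with 46 to 70 when 1 library was left out, 41 with the replicate block and 207 by limma. Those of astrocytes numbered 17 (2.07%), 13 higher (1.58%) and 4 lower (0.487%), and those of microglia 22 (2.68%), 6 higher (0.731%) and 16 lower (1.95%). The replicate block gave 8 and 5 for these, and limma 145 and 271. The astrocyte count dropped to between 5 and 9 without any 1 of the 6 sEV libraries of the other cell types, and the microglial one to 12, 12, 11 and 7 without astrocyte library 2 and microglia libraries 1, 2 and 3 respectively. Rps4x, Rpl7a, Fam32a and Eif3i were among those with the lowest p-values in neuron sEVs (adjusted p = 1.09e-08, 4.66e-06, 7.67e-06 and 0.000139). The Rps4x call was lost with partial retention left out.

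Microglia sEVs were lower in Rpl7a (adjusted p = 1.23e-06), Fam32a (5.83e-05) and Epb41l2 (0.000301), all at 0 there. Epb41l2, a protein that links membranes to the actin and spectrin cytoskeleton, gave 58.6%, 54.1% and 77.5% in astrocyte sEVs and 11.1%, 94.6% and 15.5% in neuron sEVs. Cltc, the clathrin heavy chain, and Emg1, a methyltransferase of ribosome assembly, were also at 0 in microglia sEVs (adjusted p = 0.0224 and 0.0239), but Cltc lost the call with the replicate block and without microglia sEV library 2 or 3 (up to 0.113). Emg1 lost it with the block and without any microglia sEV library, astrocyte sEV library 2 or neuron sEV library 2 (up to 0.146). Apoe was higher in astrocyte sEVs than in other sEVs (adjusted p = 0.000631), from 1.07% to 17% against at most 0.680%. That call was lost in limma and with partial retention left out (adjusted p up to 0.647). Psph, the last enzyme of serine synthesis, gave 57.6%, 63.2% and 54.7% in astrocyte sEVs by partial retention and at most 5.88% in other sEVs (adjusted p = 0.0237), and lost the call without any 1 sEV library except neuron library 3 (up to 0.0869).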

How the data were processed

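The deposited table holds raw counts of reads per isoform, with gene label, structural category and subcategory, for 18 libraries. The submitters' processing notes name minimap2 and GRCm39. Which isoform caller and which gene annotation were used is not given in the sources used here. No value of 1 occurs, so a 0 can hide single reads. The limits allowed by a 0 and the folds given as "at least" do not include such hidden reads. Reads carry no molecular identifiers, so shares and limits allowed by a 0 (3 reads) cover counting error only.

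Read shares of libraries were compared by exact two-sided permutation tests, stratified by cell type or among cell types. Counts were tested with edgeR 4.0.16 (R 4.3.3; filterByExpr, TMM, quasi-likelihood) over all isoforms in 1 fit of 18 libraries. Shares within genes were tested with diffSpliceDGE on 2 sums per gene (minimum count 5). P-values were adjusted by Benjamini-Hochberg, threshold 0.05. Scripts were tested on simulated data. Alternatives used limma 3.58.1, DESeq2 1.42.0, a replicate block, other filters and each library left out.

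Named genes had an adjusted p under 0.05 and groups that did not overlap (for isoforms also a mean of 20 or more reads in the higher group), by smallest p or largest change, or were among the 15 with most intron-retaining reads. Predicted genes were counted only, and a few genes that met the rule are not reported here. List members with most intron-retaining reads were named as examples, as were members of short counts, chosen after their values were seen. The isoforms studied, the lists and the rule were chosen with earlier results of these data known.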

Additional observations from a re-analysis of the deposited data

How the results depend on the processing

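Settings that changed a direction or moved a count by over 1.5 times were these. With isoforms at a mean of 1 or more reads, the difference in read share turned to 0.0971 (astrocytes), 0.647 (neurons) and 0.0953 points (stratified). Isoforms called numbered 40, 16 and 59 in astrocytes, microglia and neurons with the replicate block, 30 (microglia) and 91 (mean contrast) with DESeq2, and 104 (mean) and 5 (interaction) with a filter of 3 reads. Within-gene calls numbered 98 (astrocytes), 109 (neurons) and 100 (mean) at a minimum count of 10, where fewer genes were tested, 138 (microglia) and 305 (mean) with limma, and 52 (microglia) and 111 (neurons) with the replicate block. Among cells, limma gave 69, 243 and 115 for astrocytes, microglia and neurons, the replicate block 18 for microglia, and leaving out partial retention 10 for astrocytes. Among sEVs, limma gave 145, 271 and 207, the replicate block 8, 5 and 41, leaving out partial retention 5 (astrocytes) and 8 (microglia), and a minimum count of 10 gave 11 (astrocytes). Isoform usage gave 52, 51, 65 and 84 (mean) with limma, 2, 7 and 0 with the replicate block, and 18 (mean) at a minimum count of 20. Rps4x turned to −6.89 (neuron sEVs against cells) and −0.86 (against other sEVs), as log2 ratios, without partial retention. The causes were not tested.

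Without 1 library each, the differences in read share ranged from −0.552 to −0.231 (astrocytes), −0.789 to −0.641 (microglia), −0.283 to 0.0589 (neurons) and −0.466 to −0.344 (stratified), and those beyond gene composition from −0.790 to −0.450, −0.850 to −0.711, −0.777 to −0.465 and −0.729 to −0.613. The share of variance between cell types ranged from 0.585 to 0.809 in cells and 0.878 to 0.985 in sEVs. Isoforms called ranged over 30 to 48, 15 to 23, 42 to 58, 60 to 79 (mean) and 0 to 1 (interaction), within-gene calls over 57 to 117, 24 to 42, 47 to 99 and 143 to 194 (mean), and usage over 1 to 2, 2 to 5, 0 to 1 and 22 to 32 (mean). Among cells the within-gene calls ranged over 0 to 3, 5 to 23 and 9 to 15, and among sEVs over 5 to 19, 7 to 26 and 46 to 70.

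Of 57 named within-gene calls 52 held with the replicate block and 55 in limma, and of 46 named isoform calls 35 held with the block and 31 in DESeq2. Same-numbered cells and sEVs correlated at −0.0815 to 0.0795 in their deviations from group means, none over 0.1. In neurons the same-numbered pairs were at 0.0460, 0.0553 and 0.0568, and every differently numbered pair was negative. In astrocytes and microglia the same-numbered pairs had both signs. With so few libraries per group, these correlations cannot decide whether the numbers pair the samples. With the block the stratified read share gave p = 0.0117 and the share beyond composition p = 0.00391 (exact sign flips). Leaving out single-exon intron-retaining isoforms was not run, because no subcategory marks them; leaving out partial retention and the 2 predicted genes was chosen after seeing the data. Most intron-retaining isoforms were too rare to test, so the tested ones do not stand for the rest.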

Other observations

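Vdac3, which encodes a channel of the outer mitochondrial membrane, was all or none by library. Its partial intron-retaining isoforms held 98.3%, 0 and 1.19% of its reads in the 3 astrocyte cell libraries and 100%, 0 and 97.7% in the astrocyte sEV libraries. In neuron cells they held 95.2%, 100% and 97.2%, in neuron sEVs 100%, 100% and 96.0%, and at most 2.04% in any microglia library. The share did not differ between sEVs and cells in any cell type by edgeR's test (adjusted p = 0.363, 1 and 0.961). Psph and Cltc, 2 further genes with partial retention, also differed between libraries of 1 group. Psph gave 0, 0 and 48.3% in astrocyte cells, and Cltc gave 0, 56.7% and 84.3% there.

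Hnrnpk, an hnRNP protein gene, gave 8.48% in the third astrocyte sEV library, from partial retention, and at most 0.661% in any other library (adjusted p = 0.166 in astrocytes).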
